A study of Mus musculus with 12 samples.

Results

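The cone phototransduction genes are the 10 genes whose products turn absorbed light into an electrical signal in cone photoreceptors. They are the opsins Opn1sw and Opn1mw, the transducin subunits Gnat2, Gnb3 and Gngt2, the phosphodiesterase subunits Pde6c and Pde6h, the channel subunits Cnga3 and Cngb3, and the cone arrestin Arr3. They were taken by exact gene name from a table of 55487 genes, in which 10 of 10 were found, and 10 of 10 had a mean above 1 FPKM (fragments scaled to transcript length and to the mapped fragments of a library) in at least 1 group, the filter that 16471 genes passed. RNA-seq of poly(A) RNA from mouse retina was available as 12 libraries, 2 in each of 6 groups. WT retinas came from C57BL/6J mice, JNK3 KO retinas from Jnk3-/- mice, and shPax6 retinas from mice infected with an AAV2.7m8 vector that carried pU6-shPax6-GFP, in which the U6 promoter, not limited to a cell type, drives an shRNA against Pax6. Each genotype received an intravitreal injection of 1 μL of PBS or of 1 μL of 40 mM NMDA, that is 40 nmol of an agonist of a glutamate receptor used to bring about excitotoxic loss of retinal ganglion cells (RGCs). More than 3 retinas were pooled for a library, and nothing states that the 2 libraries of a group came from separate animals, so a p-value measures only the spread between libraries. Libraries from the shScramble control vector were not analysed here, so infection and knockdown cannot be told apart, and the vector is described as given under the retina in the methods and into the vitreous elsewhere in the study. The depth behind a value is unknown, because no read counts accompany the FPKM.

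In a cone, light activates an opsin, the opsin activates transducin, and transducin releases the phosphodiesterase from its inhibitory subunit. The phosphodiesterase then lowers cyclic GMP and the cyclic-nucleotide-gated channel closes, while arrestin binds the opsin to end the signal. Rods run the same cascade with paralogous proteins, and most cones of the mouse retina hold the short-wavelength and the middle-wavelength opsin together in proportions that change from the dorsal to the ventral retina. Cones are a small minority of mouse photoreceptors. Retinal bulk RNA therefore carries the cone genes at far lower levels than their rod counterparts, and in bulk RNA fewer cones and less RNA per cone cannot be told apart. Gnb3 is also used by ON bipolar cells and Gngt2 by blood monocytes, so these 2 genes are not exclusive to cones.

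The members lie on 7 chromosomes of GRCm38, each as a protein-coding gene. Opn1sw (chromosome 6, 29376671 to 29388468) is on the minus strand, as is Gnb3 (chromosome 6, 124834240 to 124840275). The other members are on the plus strand, Pde6h on chromosome 6 from 136923832 to 136968865, Opn1mw on chromosome X from 74127464 to 74150760, Arr3 on chromosome X from 100605497 to 100618493, Gnat2 on chromosome 3 from 108092789 to 108101432, Gngt2 on chromosome 11 from 95837216 to 95845734, Pde6c on chromosome 19 from 38132781 to 38183958, Cnga3 on chromosome 1 from 37214434 to 37263384 and Cngb3 on chromosome 4 from 19280850 to 19510623. Exons of Opn1sw share 397 bases with exons of Calu on the opposite strand, those of Gngt2 share 234 with Abi3 and those of Pde6h share 136 with Arhgdib. Whether strand was used in the counting is not given in the sources used here, so reads of these stretches cannot be assigned with certainty. RefSeq promoters on GRCm38.p6 were matched by symbol to 6 of 10 members, with 7 start sites, and those of Gnb3, Gngt2, Pde6c and Cngb3 had no entry. The 250 bases before the start are shown for Opn1sw and Arr3, which had the largest falls after NMDA in shPax6 retinas, and for Pde6h, which rose after NMDA in WT and fell in shPax6 retinas. None of these stretches holds an annotated exon base, and they lie at chr6:29380514-29380763 on the minus strand (Opn1sw), chrX:100605247-100605496 on the plus strand (Arr3) and chr6:136954273-136954522 on the plus strand (Pde6h). Capitals mark TAATC, the core letters of sites for the photoreceptor homeodomain factor CRX, and AGGTCA, the half-site letters of nuclear receptors, on either strand.

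Opn1sw: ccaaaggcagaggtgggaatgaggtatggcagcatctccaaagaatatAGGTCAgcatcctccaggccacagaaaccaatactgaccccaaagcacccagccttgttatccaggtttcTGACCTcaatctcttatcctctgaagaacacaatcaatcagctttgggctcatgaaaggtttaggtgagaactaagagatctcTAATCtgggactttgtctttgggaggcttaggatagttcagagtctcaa

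Arr3: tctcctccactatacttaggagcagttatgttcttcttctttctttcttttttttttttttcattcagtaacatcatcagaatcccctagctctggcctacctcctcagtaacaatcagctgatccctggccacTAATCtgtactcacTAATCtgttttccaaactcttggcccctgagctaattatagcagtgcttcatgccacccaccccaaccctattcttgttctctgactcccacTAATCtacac

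Pde6h: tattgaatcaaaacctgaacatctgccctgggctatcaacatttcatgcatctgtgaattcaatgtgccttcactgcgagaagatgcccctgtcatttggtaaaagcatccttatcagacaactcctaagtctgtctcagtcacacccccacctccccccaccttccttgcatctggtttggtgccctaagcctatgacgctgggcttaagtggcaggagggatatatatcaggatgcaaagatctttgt

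TAATC or its reverse complement GATTA stood in 3 of 7 member promoters (Opn1sw, Arr3 and Gnat2) and in 19.8% of the 32851 promoters of the table, over the same 250 bases. The longer TAATCC or GGATTA, which contains the first motif, stood in 1 of 7 (Gnat2) and in 6.25% of all promoters. AGGTCA or TGACCT stood in 1 of 7 (Opn1sw, at 2 places) and in 14.0% of all promoters. All 250 bases of the Gnat2 window lie in annotated exons of Gnat2, so its match is in exon sequence. These matches describe letters in a window and were not tested for binding.

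The genotype labels were first checked by the targeted genes. Pax6 had 173.48 and 177.30 FPKM in WT PBS and 94.56 and 92.84 in shPax6 PBS retinas, and Mapk10, which encodes JNK3, had 42.79 and 50.72 FPKM in WT PBS and 9.47 and 8.75 in JNK3 KO PBS retinas. After NMDA neither gene was lower in its targeted group than in WT, with Pax6 at 67.52 and 58.73 against 55.42 and 53.81 FPKM and Mapk10 at 6.65 and 13.77 against 8.98 and 6.00, so the check bears on the PBS libraries alone. The WT NMDA libraries stood apart from the other 10 libraries. Their FPKM summed to 805627 and 820180, against 541210 to 576922 elsewhere, and mitochondrially encoded genes took 2.98% to 3.02% of the sum, against 5.91% to 10.2% elsewhere. In WT, the NMDA response also changed with the spliced length of the gene: its median was 0.84 on the log2 scale over genes under 1 kb and fell to -1.07 over genes above 4 kb, and the corresponding medians were 0.19 and -0.04 in shPax6 and -0.10 and 0.14 in JNK3 KO retinas. The lead transcripts of Gngt2 and Pde6h are under 1 kb long, those of both opsins, Gnat2, Gnb3 and Arr3 1 to 2 kb, those of Pde6c and Cnga3 2 to 4 kb and that of Cngb3 over 4 kb.

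Gnb3 had the highest level of the members in WT PBS retinas, and the channel subunits had the lowest. FPKM are scaled per length of transcript, so these levels can be set side by side. In the 2 WT PBS libraries Gnb3 was at 555.75 and 548.66 FPKM, Gngt2 at 117.20 and 113.73 and Opn1sw at 110.85 and 117.04. Gngt2 and Opn1sw overlapped. Opn1mw, at 107.58 and 108.65 FPKM, lay below both Opn1sw libraries and overlapped with Pde6h at 91.58 and 107.92. Pde6h in turn overlapped with Gnat2 at 87.65 and 91.78 FPKM, and Gnat2 with Arr3 at 89.23 and 89.03. Pde6c, the catalytic subunit of the phosphodiesterase, was lower at 36.15 and 37.85 FPKM. The channel subunits Cngb3 (3.66 and 3.95 FPKM) and Cnga3 (3.46 and 2.96) followed without overlapping each other. Together the members took 0.222% of the FPKM sum in each WT PBS library.

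**Figure D1:**
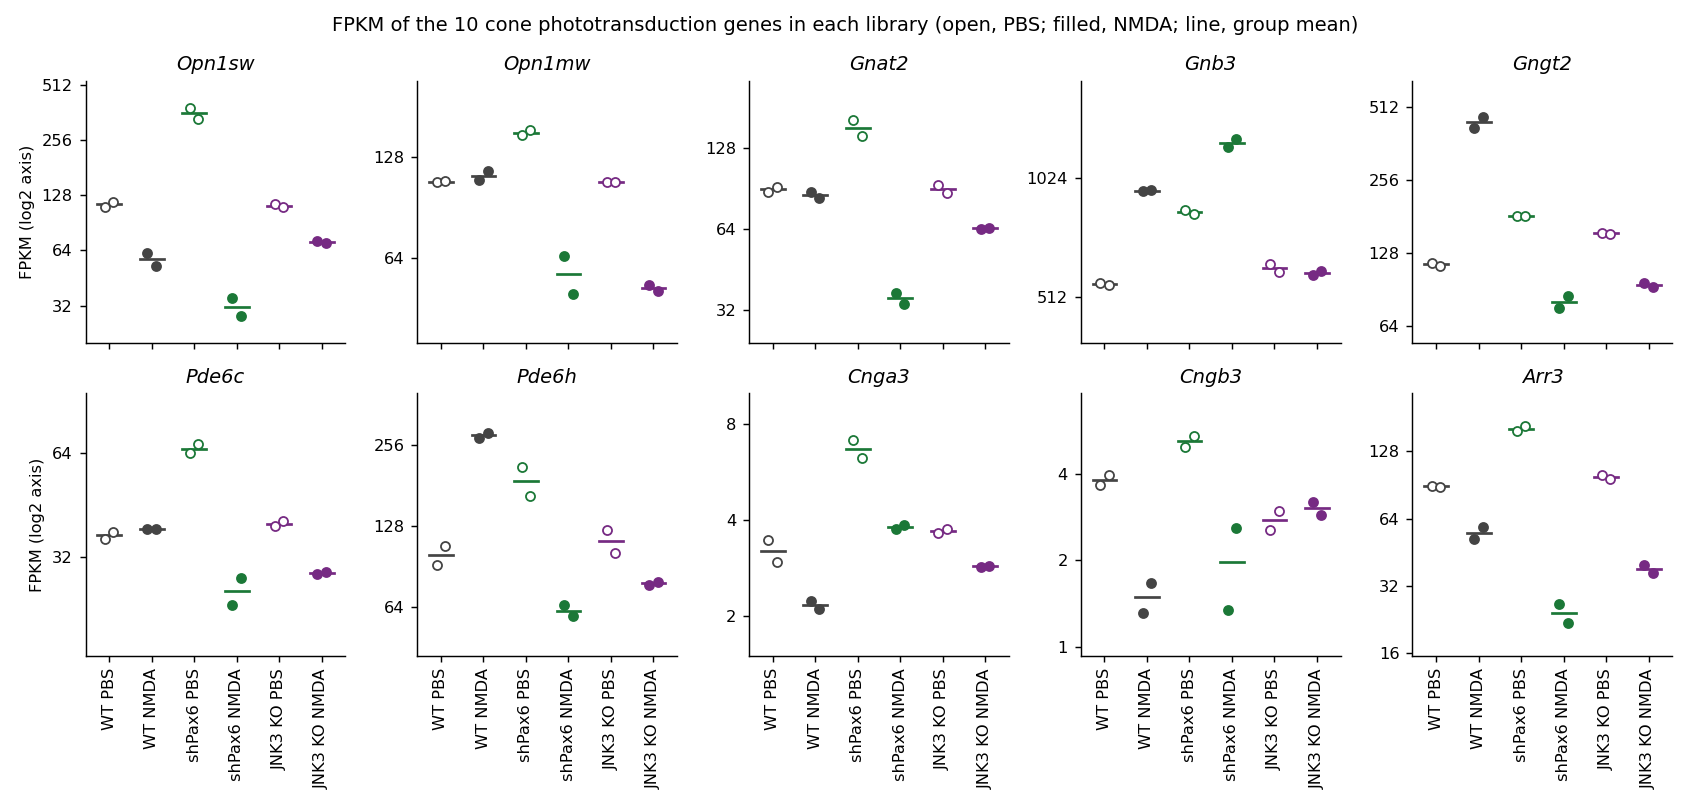
FPKM on a log2 axis of the 10 cone phototransduction genes in each of the 12 libraries, with open points for PBS, filled points for NMDA and a line at the mean of each group of 2. In shPax6 retinas Opn1sw is seen at 334.38 FPKM or more after PBS and at 35.17 FPKM or less after NMDA, whereas Gnb3 is higher after NMDA than after PBS in WT and shPax6 retinas, a direction that quantile scaling turns in WT.

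The first comparison asked how shPax6 retinas responded to NMDA. In shPax6 retinas 9 of 10 members fell and Gnb3 rose. Of the 16471 genes tested, 11% fell and 19.1% rose in this comparison at the same threshold, a Benjamini-Hochberg adjusted p under 0.05 by limma's test on log2(FPKM + 0.1) over all genes, and the median member moved by -1.41 against 0.10 for all genes tested. Both opsins, which absorb the light, fell, Opn1sw the most of all members. Opn1sw went from 382.51 and 334.38 FPKM after PBS to 35.17 and 27.97 after NMDA, and Opn1mw from 148.60 and 154.22 to 64.88 and 49.79. The groups did not overlap for either opsin. On the log2 scale Opn1sw fell by 3.51 (standard error 0.12, adjusted p = 2.43e-07 by limma) and Opn1mw fell by 1.41 (standard error 0.10, adjusted p = 1.68e-05).

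Of the transducin subunits in shPax6 retinas, the alpha subunit Gnat2 and the gamma subunit Gngt2 fell and the beta subunit Gnb3 rose. Gnat2 went from 161.69 and 141.30 to 37.01 and 33.68 FPKM, a log2 difference of -2.09 (standard error 0.08, adjusted p = 4.63e-07 by limma). Gngt2 went from 182.85 and 181.48 to 76.44 and 85.36 FPKM, a log2 difference of -1.17 (adjusted p = 4.52e-06). Gnb3 went the other way, from 848.11 and 830.89 to 1224.94 and 1280.93 FPKM, a log2 difference of 0.58 (standard error 0.04, adjusted p = 1.04e-05). The summed FPKM of the 7 ON bipolar markers, which share Gnb3, went from 507 to 540 after PBS to 422 to 462 after NMDA, and of these markers Grm6 rose by 0.39 while Lrtm1 fell by 0.57 and Pcp2 by 0.42. What part bipolar cells have in the Gnb3 value was not tested.

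The phosphodiesterase, the channel and arrestin fell in shPax6 retinas as well. Arr3, which binds the light-activated cone opsins, went from 157.36 and 165.80 to 26.56 and 21.92 FPKM, a log2 difference of -2.74 (standard error 0.10, adjusted p = 3.40e-07 by limma). Pde6h, the inhibitory subunit, went from 211.93 and 164.79 to 64.66 and 58.87 FPKM (log2 difference -1.60, adjusted p = 3.68e-05), and the catalytic Pde6c from 63.82 and 67.95 to 23.22 and 27.87 (log2 difference -1.37, adjusted p = 7.98e-06). The low-level channel genes fell by less or with a wider error. Cnga3 went from 7.14 and 6.27 to 3.76 and 3.87 FPKM (log2 difference -0.79, standard error 0.17), and Cngb3 from 4.93 and 5.42 to 1.35 and 2.60 (log2 difference -1.41, standard error 0.29). For each of the 9 members that fell, both NMDA libraries were below both PBS libraries. None of the 26 alternatives tried, among them each library left out in turn, changed the direction of a member in this comparison. The test shares 1 estimate of a gene's spread over all groups, while replicates differed most in the shPax6 groups. Between replicates the median gene differed by 0.22 on the log2 scale after PBS and 0.25 after NMDA, against 0.11 to 0.18 in the other groups. With the spread of the compared groups alone, 1 member was called higher and 7 lower, and 976 genes were called, against 4967. The transcript table called 1 member higher and 8 lower. Markers of other cells moved in the same libraries. Summed FPKM of the 12 monocyte and macrophage markers went from 114 to 121 after PBS to 625 to 645 after NMDA. Of these, 11 of 12 were called higher. The sum of the 6 neutrophil markers went from 5.16 to 6.09 to 66.4 to 73.0, with 5 of 6 called higher. That of the 6 retinal pigment epithelium (RPE) markers went from 50.5 to 57.2 to 12.65 to 13.95, with 4 of 4 tested called lower. None of the markers was listed at 0 in all 12 libraries, though the neutrophil marker Ly6g was at 0 in every shPax6 library. Their part in the member values was not tested.

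In WT retinas the members split after NMDA. Of 10 members, 3 rose (Gngt2, Pde6h and Gnb3), 4 fell (Cngb3, Opn1sw, Arr3 and Cnga3) and 3 did not pass the test. Of all genes tested, 26% rose and 33.8% fell in this comparison, so the number of members called, in either direction, lay near the background, and the median member moved by -0.01 against -0.09 for all genes. Gngt2, the gamma subunit of cone transducin, went from 117.20 and 113.73 FPKM after PBS to 417.70 and 467.16 after NMDA, a log2 difference of 1.93 (95% confidence interval 1.78 to 2.09, adjusted p = 6.08e-08 by limma). Pde6h went from 91.58 and 107.92 to 271.72 and 284.84 FPKM, a log2 difference of 1.48 (standard error 0.13, adjusted p = 1.26e-05). Both are short genes, with lead transcripts of 558 and 392 bases, and the median difference of genes under 1 kb was 0.84 in this comparison, with 83.9% of these genes below Gngt2 and 69.7% below Pde6h. When the trend on transcript length was removed from every library, Gngt2 had 0.86 and Pde6h 0.62, and both stayed below an adjusted p of 0.05. Gnb3 went from 555.75 and 548.66 to 945.09 and 952.45 FPKM, a log2 difference of 0.78 (adjusted p = 3.64e-07), which became -0.53 under quantile scaling. The median of genes of 1 to 2 kb, the class of Gnb3, was 0.59.

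Among the members that fell in WT retinas, Opn1sw went from 110.85 and 117.04 to 61.81 and 52.36 FPKM, a log2 difference with a 95% confidence interval from -1.27 to -0.73 (adjusted p = 6.69e-05 by limma). Arr3 went from 89.23 and 89.03 to 52.03 and 58.54 FPKM, a log2 difference of -0.69 (adjusted p = 2.13e-04). The lead transcripts of both genes are 1 to 2 kb long, a class in which the median gene rose by 0.59, and the length correction took Opn1sw to -1.75 and Arr3 to -1.49. The lead transcript of Arr3, however, had 36.82 and 33.88 FPKM after PBS and 34.97 and 40.58 after NMDA, and with the transcript table the difference was 0.09 for Arr3 and -0.33 for Opn1sw, neither of which passed the threshold. Cngb3 went from 3.66 and 3.95 to 1.31 and 1.67 FPKM (log2 difference -1.30, adjusted p = 0.00374), and its class of genes above 4 kb had a median of -1.07. Cnga3 went from 3.46 and 2.96 to 2.23 and 2.11 FPKM (log2 difference -0.54, adjusted p = 0.0198), and its class of 2 to 4 kb had a median of -0.20. With the length correction neither channel gene passed the threshold, at -0.60 for Cngb3 and -0.20 for Cnga3.

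Opn1mw (107.58 and 108.65 against 108.95 and 116.05 FPKM), Gnat2 (87.65 and 91.78 against 87.37 and 83.56) and Pde6c (36.15 and 37.85 against 38.61 and 38.53) did not pass the test in WT retinas. The 95% confidence intervals of their log2 differences ran from -0.18 to 0.29, from -0.25 to 0.11 and from -0.14 to 0.26. These calls rest on the deposited scale. When FPKM were rescaled to TPM, which removes the higher FPKM sum of the WT NMDA libraries and moves the median of all genes from -0.09 to -0.66, Opn1mw had -0.52, Gnat2 -0.64 and Pde6c -0.51, and 10 of 10 members were called. The median of genes of like length was 0.59 for Opn1mw and Gnat2 and -0.20 for Pde6c. With the length correction Gnat2 was called lower at -1.005 (adjusted p = 5.69e-06 by limma) and Opn1mw at -0.83 (adjusted p = 0.000191), whereas Pde6c was not called at 0.16. Marker sums moved in these libraries too. The monocyte and macrophage markers went from 255 to 283 FPKM after PBS to 524 to 569 after NMDA, with 6 of 12 called higher and 4 lower, the neutrophil markers from 212 to 235 to 1947 to 1985, and the ON bipolar markers from 636 to 643 to 1600 to 1629, with 2 of 7 called higher and 4 lower, and none of the markers was at 0 in every library. Of the ON bipolar markers, Gng13 and Pcp2 were called higher, with lead transcripts of 347 and 504 bases. Those that fell, Grm6, Trpm1, Prkca and Lrtm1, have 4291 to 8409 bases. Genes under 1 kb had a median of 0.84 in this comparison and genes above 4 kb one of -1.07. The part of these cells in the values of Gngt2 and Gnb3 was not tested.

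In JNK3 KO retinas 7 of 10 members fell after NMDA and none was called higher (0 of 10 also at an unadjusted p under 0.05), where 6.1% of all genes tested fell and 4.33% rose. The median member moved by -0.50 against -0.01 for all genes. Arr3 had the largest fall, from 100.27 and 95.80 FPKM after PBS to 39.79 and 36.74 after NMDA, a log2 difference of -1.36 (standard error 0.10, adjusted p = 7.85e-05 by limma). Of the opsins, Opn1mw had the larger fall here and Opn1sw in shPax6 retinas. Opn1mw went from 107.62 and 108.08 to 53.19 and 51.05 FPKM (log2 difference -1.05, adjusted p = 0.000509), and Opn1sw from 114.07 and 110.40 to 72.08 and 70.33 (log2 difference -0.66, adjusted p = 0.00914). Gngt2, at 155.18 and 153.79 against 96.66 and 93.20 FPKM, fell by 0.70 on the log2 scale (adjusted p = 0.000459). The other calls were smaller.

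Gnat2 went from 92.84 and 87.08 to 63.75 and 64.64 FPKM (log2 difference -0.49), Pde6c from 39.26 and 40.71 to 28.62 and 28.92 (log2 difference -0.47) and Pde6h from 123.77 and 101.59 to 77.22 and 79.06 (log2 difference -0.52, adjusted p = 0.0409) in JNK3 KO retinas, and the call of Pde6h was lost in 18 of 26 alternatives. Gnb3 had 618.97 and 591.83 FPKM after PBS and 581.25 and 593.93 after NMDA, with a 95% confidence interval of the log2 difference from -0.13 to 0.05. The channel genes did not pass either, Cnga3 at 3.65 and 3.76 against 2.86 and 2.88 FPKM and Cngb3 at 2.55 and 2.96 against 3.20 and 2.87. Without JNK3 KO PBS replicate 1 or JNK3 KO NMDA replicate 1 only 3 members were called, and without replicate 2 of either group 4, under the assumption that the library left alone varies like the other groups. In these retinas the monocyte and macrophage markers summed to 218 to 236 FPKM after PBS and 135 to 137 after NMDA, the neutrophil markers to 156 to 169 and 13.1 to 13.9, and the ON bipolar markers to 653 to 690 and 634 to 643, and the part of these cells was not tested.

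Before NMDA, the members were higher in shPax6 than in WT retinas. Under PBS 9 of 10 were called higher and none lower (0 of 10 also at an unadjusted p under 0.05), where 5.36% of all genes tested were higher and 11.2% lower, and the median member was 0.79 higher against -0.06 for all genes. Opn1sw had the largest difference, with 110.85 and 117.04 FPKM in WT and 382.51 and 334.38 in shPax6 retinas, 1.65 on the log2 scale (95% confidence interval 1.38 to 1.92, adjusted p = 4.24e-05 by limma). The other opsin, Opn1mw, was 0.49 higher (adjusted p = 0.0132), from 107.58 and 108.65 to 148.60 and 154.22 FPKM. Cnga3 was 1.04 higher (3.46 and 2.96 against 7.14 and 6.27 FPKM), Pde6h 0.91, Arr3 0.86, Pde6c 0.83, Gnat2 0.75, Gngt2 0.66 and Gnb3 0.60. Cngb3 was at 3.66 and 3.95 FPKM in WT and 4.93 and 5.42 in shPax6 retinas, a difference of 0.43 with a 95% confidence interval from -0.23 to 1.09. Over all alternatives tried, the 9 differences stayed above 0, Opn1mw lost its call when any of the 4 libraries compared was left out, and Gnat2, Gngt2, Pde6c and Cnga3 lost theirs with the transcript table. With the spread of the compared groups alone, 7 members were called higher and 0 lower, and 887 genes were called, against 2724. The RGC markers were lower in the same libraries. Summed over the 8 markers, FPKM were 157 to 158 in shPax6 PBS and 536 to 555 in WT PBS retinas. Of these markers, 5 of 8 were called lower. The neutrophil markers summed to 5.16 to 6.09 FPKM against 212 to 235 in WT PBS, with 5 of 6 called lower, and the monocyte and macrophage markers to 114 to 121 against 255 to 283, with 9 of 12 called lower. The part of a changed mix of cells was not tested. The shPax6 PBS libraries enter this comparison and the shPax6 response to NMDA, so a high value in them raises the former and deepens the latter, and the shPax6 NMDA libraries were for 8 of 10 members below those of WT PBS as well.

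Few calls separated JNK3 KO from WT retinas under PBS. Of the members, 1 of 10 was called higher (Gngt2) and 0 of 10 lower, and at an unadjusted p under 0.05 the counts were 2 and 0, where 1.1% of all genes tested were higher and 0.407% lower. Gngt2 had 117.20 and 113.73 FPKM in WT and 155.18 and 153.79 in JNK3 KO retinas, a log2 difference of 0.42 (standard error 0.07, adjusted p = 0.0255 by limma). This call was lost in 13 of 26 alternatives, among them each fit without a library of WT PBS, JNK3 KO PBS or JNK3 KO NMDA. For Opn1sw, Opn1mw and Gnat2 the 95% confidence intervals of the log2 difference ran from -0.29 to 0.24, from -0.24 to 0.23 and from -0.17 to 0.18. Cngb3 had 3.66 and 3.95 FPKM in WT and 2.55 and 2.96 in JNK3 KO retinas. Its log2 difference of -0.45 was not called, with a wider 95% confidence interval from -1.12 to 0.21.

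**Figure D2:**
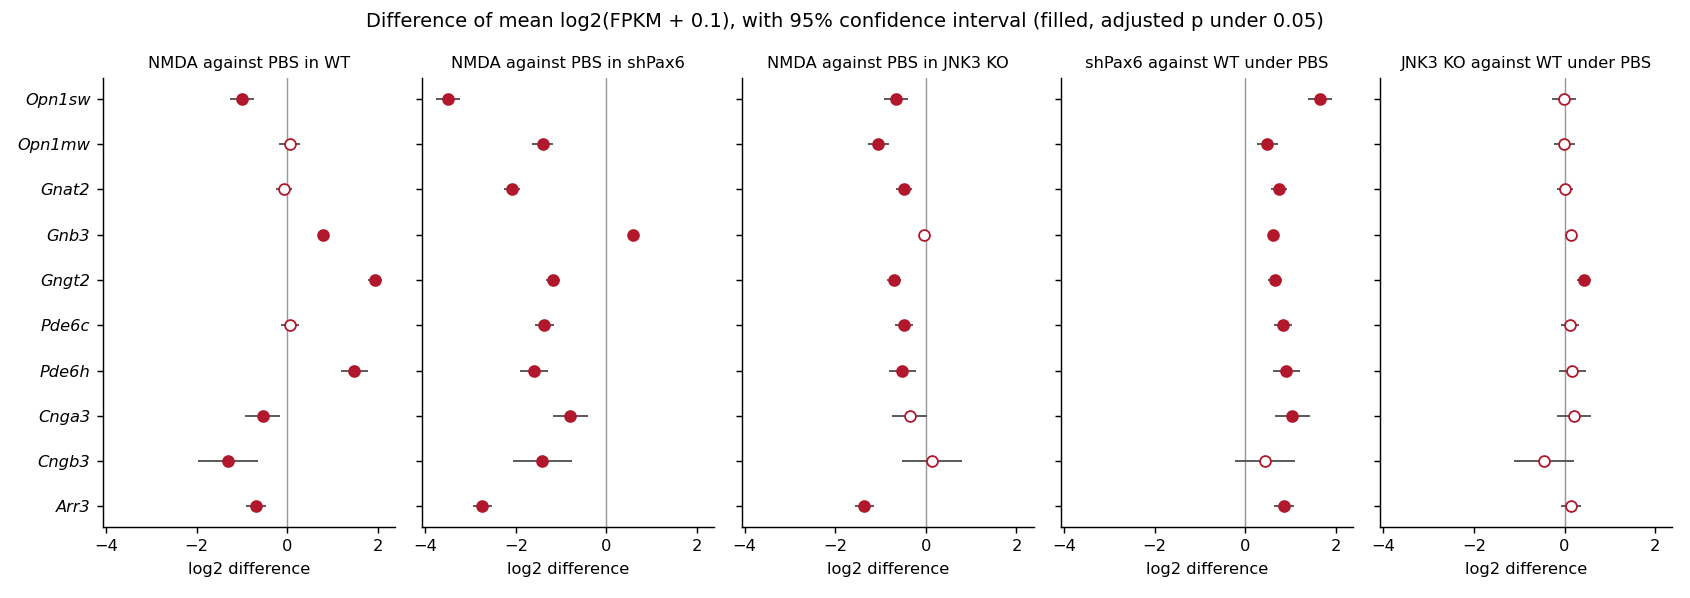
Difference of mean log2(FPKM + 0.1) for each cone phototransduction gene in 5 comparisons, with 95% confidence intervals from limma and filled points where the adjusted p was under 0.05. Members lie left of 0 in shPax6 retinas after NMDA with Gnb3 as the exception, and right of 0 in shPax6 against WT under PBS. In WT after NMDA they lie on both sides of 0, where quantile scaling turns Gnb3 and TPM turns Opn1mw and Pde6c. On TPM 3 members were called higher and 7 lower in WT.

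Whether the response to NMDA differed between genotypes was tested as a difference of responses. Against shPax6, the WT response was higher for 8 of 10 members and lower for 0 of 10, also at an unadjusted p under 0.05, where 18.3% of all genes tested had a higher and 31.4% a lower response. Gngt2 (difference of log2 responses 3.11, standard error 0.10) and Pde6h (3.08, standard error 0.19) led, since each rose in WT and fell in shPax6 retinas. Opn1sw followed with 2.51, Arr3 with 2.05, Gnat2 with 2.02, Opn1mw with 1.47 and Pde6c with 1.43, all with an adjusted p of 5.88e-05 or less. The medians of genes of like length were 0.60 for Gngt2 and Pde6h, 0.37 for the opsins, Gnat2, Gnb3 and Arr3, -0.33 for Pde6c and Cnga3 and -1.02 for Cngb3. Gnb3 had a difference of 0.20 (adjusted p = 0.0135) that turned to -0.32 on TPM, -0.37 when scaled to nuclear genes, -0.86 with quantile scaling and -0.26 with the length correction. For Cnga3 and Cngb3 the intervals of the difference ran from -0.28 to 0.79 and from -0.83 to 1.04. The other 7 differences kept their direction and their adjusted p below 0.05 under each scaling tried.

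Against JNK3 KO, the WT response was called higher for 7 of 10 members and lower for 1 of 10 (Cngb3, difference of -1.44, adjusted p = 0.0161 by limma), where 23.5% of all genes tested were higher and 27.9% lower. The split moved with the scale, to 4 higher and 3 lower on TPM, 2 and 4 scaled to nuclear genes, 3 and 2 with quantile scaling and 4 and 2 with the length correction. Opn1sw, not called on the deposited scale at -0.34, was called lower at -0.94 on TPM, -0.82 with quantile scaling and -1.15 with the length correction. Cngb3 lost its call in 7 of 25 alternatives, and genes above 4 kb had a median of -1.18. Gngt2 (2.64) and Pde6h (95% confidence interval 1.58 to 2.43) again had the largest differences, beside a median of 1.07 for genes under 1 kb, and stayed called under each scaling. The differences of Opn1mw (1.10), Gnb3 (0.82), Arr3 (0.67), Pde6c (0.53) and Gnat2 (0.42) depended on the scale of the WT NMDA libraries, Gnb3 turning to -0.56 with quantile scaling, Arr3 to -0.19 with the length correction, Pde6c to -0.06 on TPM and Gnat2 to -0.18 on TPM. Genes of 1 to 2 kb had a median of 0.74 and genes of 2 to 4 kb one of -0.15. In the comparison of shPax6 with JNK3 KO retinas, the log2 differences on the deposited scale do not use the WT NMDA libraries, though the shared estimate of the spread does. There 7 of 10 members had a lower (more negative) response in shPax6 retinas and Gnb3 a higher one, where 5.62% of all genes tested were lower and 12.1% higher. Opn1sw differed by -2.85 (standard error 0.17, adjusted p = 1.39e-05), Gnat2 by -1.61, Arr3 by -1.38, Pde6h by -1.08, Pde6c by -0.90 and Gngt2 by -0.47, and Gnb3 by 0.62 (adjusted p = 0.000142). Cngb3 differed by -1.55 with a standard error of 0.41, a call lost in 12 of 26 alternatives, and Opn1mw had a difference of -0.36 with an adjusted p of 0.124. The 3 comparisons of responses share libraries pairwise, so their counts are not independent.

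The ratio of the opsins within a library does not change when 1 factor scales all genes of the library, as in TPM, though quantile scaling and the length correction act on single genes. Opn1mw to Opn1sw was 0.97 and 0.93 in the WT PBS libraries, 0.94 and 0.98 in JNK3 KO PBS and 0.39 and 0.46 in shPax6 PBS. After NMDA it was 1.76 and 2.22 in WT, 1.84 and 1.78 in shPax6 and 0.74 and 0.73 in JNK3 KO retinas. The 2 treatments did not overlap in any genotype, but the direction was not shared: on the log2 scale the ratio moved by 1.06 in WT, 2.10 in shPax6 and -0.39 in JNK3 KO retinas. Over the 12 libraries the mean change was 0.92 (two-sided exact permutation test with treatment permuted within genotype, p = 0.0556), and the smallest p that the 216 arrangements allow is 0.00926. With all genotypes in 1 test, the change did not pass the threshold. With the lead transcript of each opsin, Opn1mw-201 and Opn1sw-203, the changes were 0.51, 2.16 and -0.40.

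**Figure D3:**
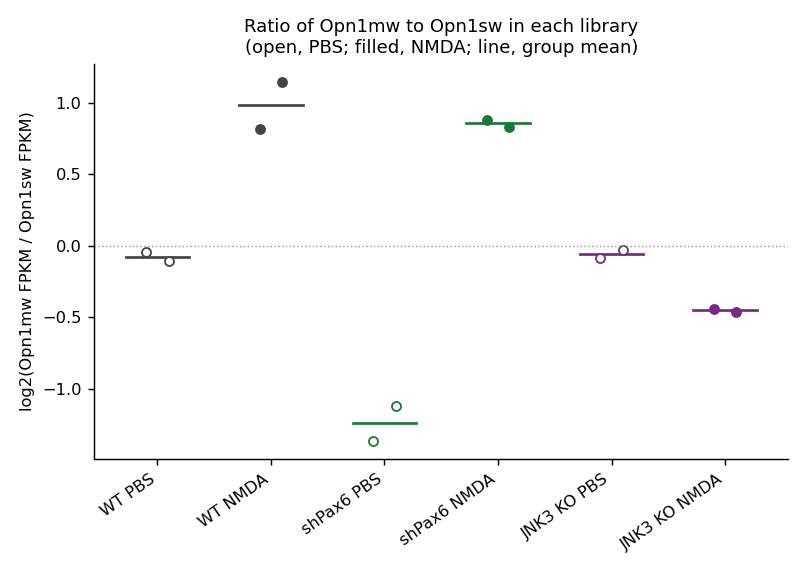
log2 ratio of Opn1mw to Opn1sw FPKM in each library, with open points for PBS, filled points for NMDA and a line at each group mean. The NMDA libraries lie above the PBS libraries in WT and shPax6 retinas and below them in JNK3 KO retinas, and the shPax6 PBS libraries are the lowest at -1.36 and -1.12.

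Rods run the cascade with paralogues, and 9 rod counterparts of the members other than the opsins were read beside them in the same libraries. Whether these counterparts, Gnb1 among them, are limited to rods was not tested. In shPax6 retinas 9 of 9 rod counterparts fell after NMDA, with a median of -0.71 against -1.41 for the cone genes. Sag, the rod arrestin, moved by -0.88 where Arr3 moved by -2.74, and Gnat1, rod transducin, by -0.70 where Gnat2 moved by -2.09. As a ratio within each library, Arr3 to Sag moved by -1.87, Gnat2 to Gnat1 by -1.40, Pde6c to Pde6a by -1.04 and Cngb3 to Cngb1 by -1.03 on the log2 scale. Smaller shifts were those of Pde6c to Pde6b at -0.65, Cnga3 to Cnga1 at -0.49, Pde6h to Pde6g at -0.41 and Gngt2 to Gngt1 at -0.30. Gnb3 to Gnb1 moved the other way, by 1.29, with Gnb1 at -0.71. These ratios were not tested.

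In WT retinas 6 of 9 rod counterparts rose and 1 fell after NMDA on the deposited scale, with a median of 0.41, whereas on TPM 3 rose and 5 fell, with a median of -0.16. The inhibitory and gamma subunits rose in both cascades on the deposited scale, Pde6g by 1.19 beside Pde6h at 1.48 and Gngt1 by 1.24 beside Gngt2 at 1.93. Of these, Gngt1 turned to -0.33 with quantile scaling and Pde6g was not called with the length correction (0.13). The lead transcripts of Pde6g and Gngt1 have 900 and 1183 bases. As ratios within a library, Arr3 to Sag moved by -1.27, Cnga3 to Cnga1 by -0.82 and Cngb3 to Cngb1 by -2.68, although the lead transcripts of the last pair differ in length (1512 bases for Cngb1 and 4708 for Cngb3). Gnb3 to Gnb1 moved by 1.67. Gnb1 fell by 0.89 while Gnb3 rose by 0.78, a rise that quantile scaling turned. In JNK3 KO retinas 8 of 9 rod counterparts fell, with a median of -0.39. There Arr3 to Sag moved by -1.07, whereas Gnat2 to Gnat1 moved by -0.10 and Gngt2 to Gngt1 by -0.11. Under PBS, 9 of 9 rod counterparts were higher in shPax6 than in WT retinas (median 0.50), the largest being Sag at 1.06, and Cnga3 to Cnga1 was 0.50 higher while Arr3 to Sag differed by -0.20.

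**Figure D4:**
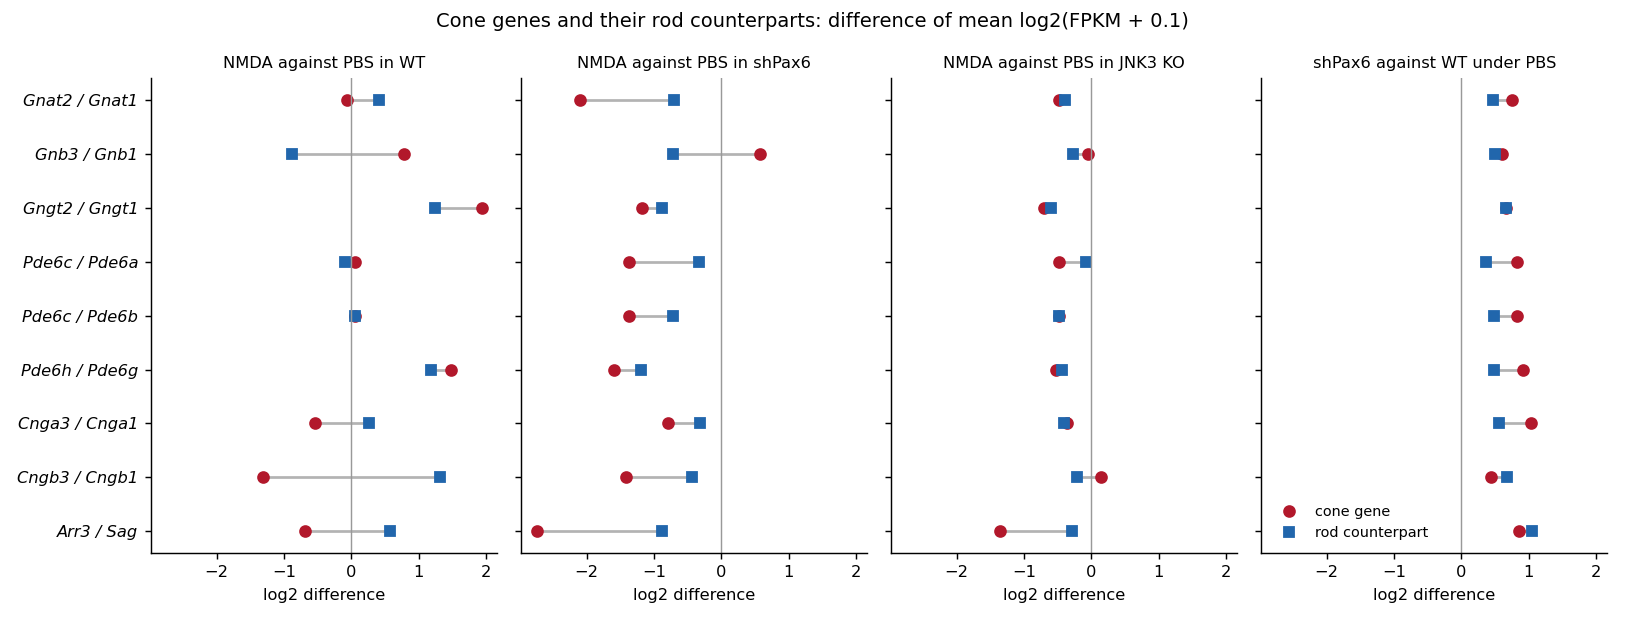
Difference of mean log2(FPKM + 0.1) for the cone genes other than the opsins (circle) and their rod counterparts (square), joined by a line, in 4 comparisons. In shPax6 retinas after NMDA the circles lie left of the squares in each pair except Gnb3 and Gnb1. In WT the circles of Arr3, Cnga3 and Cngb3 lie left of 0 and the squares right of it on the deposited scale. Sag and Cnga1 do not keep this side with quantile scaling or when scaled to nuclear genes. On TPM, Cnga1 is at -0.31 and Sag at 0.0001. Gnb3 lies right of 0 in WT, where quantile scaling turns it.

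A list of 15 genes named for shutoff and calcium feedback, most of them used in both photoreceptors, was tested. The name does not describe Aipl1, Pde6d and Unc119, which are on the list too. In shPax6 retinas 12 of 15 fell after NMDA, with a median of -0.50. Guca1b, a calcium sensor of guanylate cyclase, fell by 1.09, as did Slc24a2, the exchanger of cones, by 1.09. In WT 6 rose and 8 fell on the deposited scale (4 and 9 on TPM, and 13 fell with quantile scaling), from Guca1a at 1.29 to Rgs9, the GTPase-activating protein that switches transducin off, at -3.80. Rgs9 went from 216.90 and 197.07 to 11.26 and 19.27 FPKM. In JNK3 KO retinas 9 of the 15 fell and 1 rose, with Pdc at -0.81 and Gucy2f at 0.56.

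Other genes enriched in cones were tested as a list of 6. In shPax6 retinas 6 of 6 fell after NMDA, with a median of -0.94, Kcne2 by 1.73 and Sall3 by 1.31 leading. In WT 2 rose on the deposited scale (1 on TPM), Ccdc136 by 1.47 and Otop3 by 0.74, and 3 fell, among them Thrb, the thyroid hormone receptor needed for the middle-wavelength opsin, by 1.46. The lead transcript of Thrb has 6200 bases, and genes above 4 kb had a median of -1.07. In JNK3 KO retinas 1 fell, Rxrg, a nuclear receptor of cones, by 1.22. Of the 8 photoreceptor transcription factors, 6 fell and 1 rose in WT after NMDA (median -0.55), against 7 and 0 on TPM and 3 and 3 with the length correction, and 3 rose and 2 fell in shPax6 retinas (median -0.09, and 0 and 3 with quantile scaling). In JNK3 KO retinas 3 rose and 2 fell. Crx moved by -0.08 in WT (not called) and fell by 0.27 in shPax6 retinas, where it went from 483.96 and 439.26 to 375.62 and 391.89 FPKM. Nr2e3, a nuclear receptor of rods, was 0.98 higher in shPax6 than in WT retinas under PBS. Of the 10 outer segment genes, 8 fell in shPax6 retinas after NMDA (median -0.30; 4 fell with the length correction), and under PBS 10 of 10 were higher in shPax6 than in WT retinas (median 0.40).

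**Figure D5:**
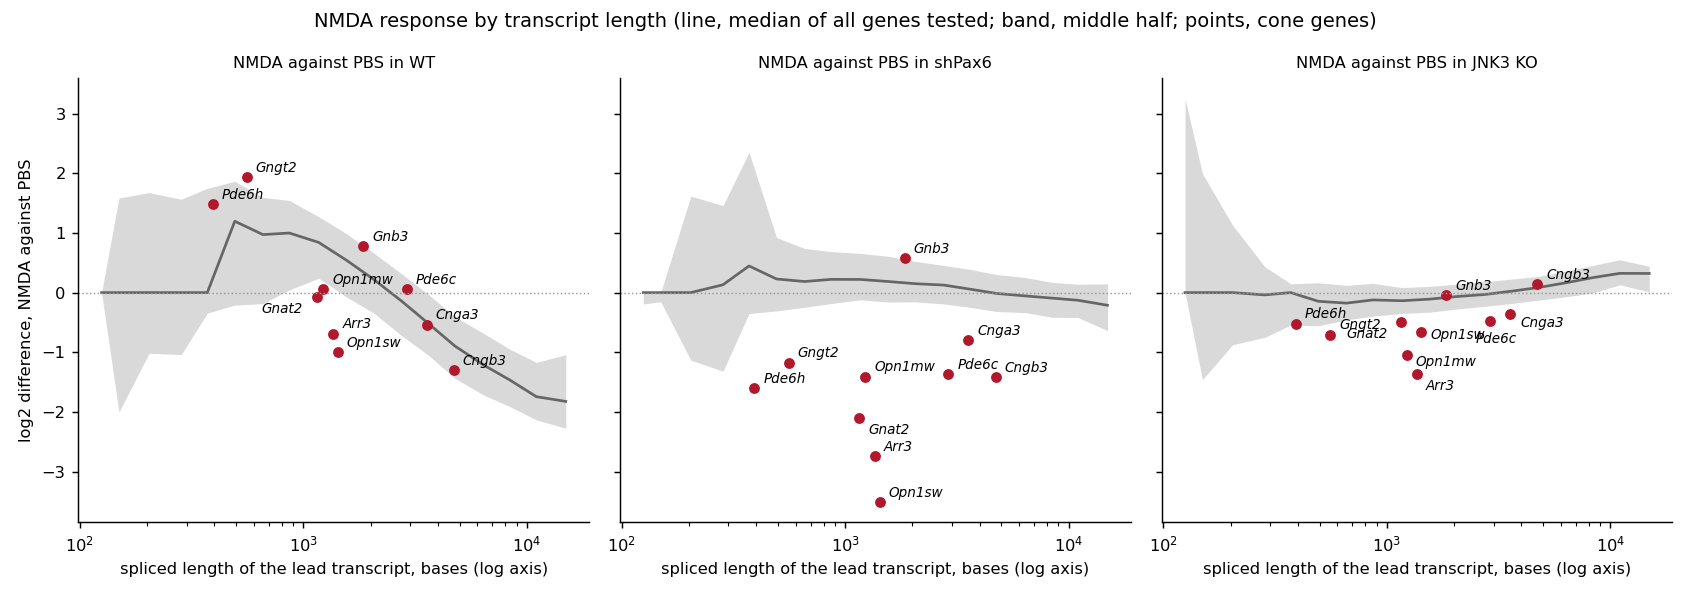
NMDA response on the log2 scale against the spliced length of the lead transcript (log axis), with the median of all genes tested as a line, the middle 50% as a band and the cone genes as points. In WT the line falls with length, Pde6h, Cnga3 and Cngb3 lie inside the band and Opn1sw, Arr3, Gnat2 and Opn1mw below it, whereas in shPax6 retinas 9 of 10 points lie below the band and in JNK3 KO retinas Arr3 lies lowest.

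The members varied together to different degrees over the 12 libraries, which fall into 6 groups and share scaling within a library, so the coefficients are a description. Pearson's r of log2(FPKM + 0.1) was highest for Pde6h and Gngt2 (0.950) and for Arr3 and Gnat2 (0.947), followed by Arr3 and Opn1sw (0.933). Gnb3 had the lowest coefficients, down to -0.490 with Cngb3. The 5 protein-coding genes outside the lists that were most like the mean z-score of the members were Emc7 (r = 0.947), Ccdc24 (0.946), Nim1k (0.896), Nxnl1 (0.887) and Sh2d1a (0.883). Nxnl1, which encodes the rod-derived cone viability factor, had 92.36 and 91.20 FPKM in shPax6 PBS and 51.15 and 49.37 in shPax6 NMDA retinas. Emc7, a subunit of an endoplasmic reticulum membrane complex, spanned 20.46 to 26.95 FPKM over the 12 libraries.

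At the level of transcripts the members were uneven. The lead transcript held 100% of the FPKM of Cngb3, which has 1 annotated transcript, 89.5% of Cnga3 and 78.9% of Opn1mw, but 35.5% of Gnat2 and 36.1% of Gngt2. Gngt2-205 and Gngt2-207, of 563 and 558 bases, were listed at 56.50 and 31.50 FPKM in WT PBS replicate 1 and at 16.16 and 48.94 in replicate 2, so the split of a member's reads between near-identical transcripts was less certain than its sum. Opn1sw-201 and Opn1sw-203 both fell in shPax6 retinas, from 144.30 and 134.04 to 17.73 and 15.87 FPKM and from 149.38 and 142.62 to 13.25 and 9.87. In WT retinas they parted, Opn1sw-201 from 46.03 and 43.43 to 14.27 and 15.29 FPKM, and Opn1sw-203 from 48.68 and 57.33 to 47.54 and 37.07. Calu, named here because its exons overlap with Opn1sw on the other strand, had 38.65 and 38.45 FPKM in shPax6 PBS and 57.84 and 57.81 in shPax6 NMDA retinas, the reverse of the direction of Opn1sw.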

How the data were processed

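Poly(A) RNA of mouse retina was sequenced as paired reads of 101 bases, and the authors deposited FPKM per gene and per transcript, estimated with RSEM. The submitters' processing notes name STAR 2.7.1a, RSEM 1.3.3, edgeR 3.36.0, R 4.1.0 and GRCm38.p6. No read counts were used here, so limma's test on log2(FPKM + 0.1) took the place of a count test. Genes whose mean exceeded 1 FPKM in any of the 6 groups were fitted with 1 mean per group and an intensity trend in limma 3.58.1 (R 4.3.3, data.table version 1.17.8), p-values were adjusted by the Benjamini-Hochberg method over all 16471 genes, and a gene was called at an adjusted p under 0.05. Fold changes on this scale understate those of low genes. The 8 comparisons were NMDA against PBS in each genotype, each mutant against WT under PBS, and the differences of the responses to NMDA. The opsin ratio was tested by a two-sided exact permutation test. Figures and motif searches used Python 3.11.15, pandas 2.3.3, numpy 2.4.6 and matplotlib 3.10.9.

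The members and the gene lists were chosen with earlier results of these data known. A rod counterpart and an ON bipolar marker are not reported here and were left out of their lists. Named beside the members were the rod counterparts, Pax6 and Mapk10, up to 2 called genes with the largest rise and 2 with the largest fall of each other list, and the 5 protein-coding genes most like the members. By ID, 55227 of 55487 genes matched the annotation, and 16452 of the genes tested (99.9%) had a spliced length, that of the transcript with the highest mean FPKM. Alternatives were other pseudocounts (0.5 and 1), filters, scalings and variance models, a length correction (lowess, span 0.3), the replicate block, the transcript table, limits on fold change and each library left out. The fit with neither WT NMDA library was chosen after seeing the data. The scripts were tested on simulated data. The list calls under other scalings were also computed after seeing the data.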

Additional observations from a re-analysis of the deposited data

Results flagged for a closer look

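On the deposited scale, the response to NMDA differed between genotypes for the following members by limma's test of the difference of log2 responses. WT minus shPax6 was 2.51 for Opn1sw, 1.47 for Opn1mw, 2.02 for Gnat2, 0.20 for Gnb3, 3.11 for Gngt2, 1.43 for Pde6c, 3.08 for Pde6h and 2.05 for Arr3. Of these, Gnb3 turned to -0.32 on TPM and to -0.86 with quantile scaling. WT minus JNK3 KO was 1.10 for Opn1mw, 0.42 for Gnat2, 0.82 for Gnb3, 2.64 for Gngt2, 0.53 for Pde6c, 2.00 for Pde6h, -1.44 for Cngb3 and 0.67 for Arr3. The values of Gnat2, Gnb3, Pde6c and Arr3 in this comparison turned under at least 1 other scaling, and Cngb3 lost its call in 7 of 25 alternatives. shPax6 minus JNK3 KO was -2.85 for Opn1sw, -1.61 for Gnat2, 0.62 for Gnb3, -0.47 for Gngt2, -0.90 for Pde6c, -1.08 for Pde6h, -1.55 for Cngb3 and -1.38 for Arr3.

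The log2 ratio of Opn1mw to Opn1sw moved after NMDA by 1.06 in WT and 2.10 in shPax6 retinas, where both NMDA libraries lay above both PBS libraries, and by -0.39 in JNK3 KO retinas, where they lay below. The difference between genotypes in this ratio was not tested.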

How the results depend on the processing

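The alternatives were 15 on all libraries, the fit with neither WT NMDA library, and each of 12 libraries left out. The rules with a fold limit gave counts of members alone. Outside the fits with 1 library left out, single members lost a call in 52 values, gained one in 15 and turned in 21. With 1 library left out, calls of single members were lost more often than gained. A further 23 values outside the fits with 1 library left out, and 7 within them, changed sign without being called before or after. Counts of members called that moved by over 1.5 times were, for NMDA in WT (7), 4 with the transcript table and under both rules with a log2 limit of 1. For NMDA in JNK3 KO (7) they were 2 under the same 3 settings, and 3 to 7 with a library left out. For shPax6 against WT under PBS (9) they were 5 with the transcript table and 2 with the fold limits. For JNK3 KO against WT under PBS (1) they were 0 with nuclear, 75th-percentile and quantile scaling, the spread of the groups compared alone, no intensity trend, the length correction, the transcript table and the fold limits, and 0 to 1 with a library left out. For WT minus JNK3 KO (8) they were 5 with quantile scaling and 4 with the fold limits, and for shPax6 minus JNK3 KO (8) 4 with the transcript table and 5 with the fold limits. The fold limit with the adjusted p cannot call more members, by construction, whereas the rule with the unadjusted p has no such bound. The other causes were not tested.

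The values that turned and were called before or after are all from comparisons with the WT NMDA libraries. In WT, Opn1mw had -0.52 on TPM, -0.60 scaled to nuclear genes, -0.55 with quantile scaling and -0.83 with the length correction, Gnb3 had -0.53 with quantile scaling, Pde6c had -0.51 on TPM and -0.60 scaled to nuclear genes, and Arr3 had 0.0927 with the transcript table. For WT minus shPax6, Gnb3 had -0.32, -0.37, -0.86 and -0.26 on TPM, nuclear genes, quantile scaling and the length correction. For WT minus JNK3 KO, Gnat2 had -0.18, -0.31, -0.15 and -0.58 in the same order, Gnb3 had -0.56 with quantile scaling, Pde6c had -0.0584 on TPM and -0.19 on nuclear genes, and Arr3 had -0.0604 on nuclear genes and -0.19 with the length correction. In WT the calls over all genes were 4286 higher and 5569 lower, and 2247 and 8270 on TPM.

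The deviations of same-numbered libraries had r from -0.10 to 0.09 over 15 pairs of groups, so no deviation shared by replicate number over all genes was seen. Whether same-numbered libraries share an animal or a batch cannot be read from these values. With the replicate block, 7, 10 and 6 members were called for NMDA in WT, shPax6 and JNK3 KO, 9 and 1 for shPax6 and JNK3 KO against WT under PBS, and 8 for each difference of responses. The opsin ratio had 0.92 with the replicate block (exact permutation p = 0.125, smallest possible 0.0312). With neither WT NMDA library in the fit, chosen after seeing the data, 10 and 6 members were called for NMDA in shPax6 and JNK3 KO. With 2 libraries a group, small differences in the low channel genes were not detectable.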
